A study of Mus musculus with 12 samples.

Results

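The genes C2, C3, C4b, Cfb, Cfp, Serping1, C3ar1 and C5ar1 encode components, a regulator and receptors of the complement system, and their messenger RNA was followed in cells of the mouse superior cervical ganglion (SCG), a sympathetic ganglion. Members were the probe sets whose only gene symbol in the platform annotation is 1 of these 8, and each gene was represented by its probe set of highest mean over all arrays. By this rule 6 of the 8 genes, among 18193 genes in all, had a probe set, and the 6 are carried by 12 probe sets. C3 and C4b were not analysed here, because no probe set carries the symbol of C3 alone and the probe set of C4b carries that of C4a as well.

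Complement is a cascade of plasma and tissue proteins that marks cells, debris and microbes. C2 supplies the protease of the classical and lectin pathway convertase, factor B (Cfb) supplies that of the alternative pathway convertase, and properdin (Cfp) stabilises the latter. Serping1 encodes the C1 inhibitor, which blocks the proteases that start the cascade, and C3ar1 and C5ar1 encode the receptors for the anaphylatoxins C3a and C5a, which macrophages and other myeloid cells are known to carry. In nervous tissue complement is known for tagging debris and synapses for removal by phagocytes.

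The study compared SCG cells of CD1 mice on a flat surface (2D), SCG cells in porous scaffolds of polystyrene (3D) and ganglia taken freshly from the animal (tissue), to learn which kind of culture is closer to the ganglion. Each group has 4 biological replicates, so 12 Affymetrix arrays were read, and their number limits the precision. No genetic change or drug is stated for any group. Both cultures grew for 5 days on collagen coated material in medium with nerve growth factor and serum, and a dish or scaffold received the cells of 2 ganglia on average. The labels name a polystyrene Petri dish for 2D and an age of 21 days, whereas the methods name glass bottom dishes and neonatal mice. These are mixed cells: the mean of 9 sympathetic neuron markers lay between 10.14 and 12.67 on the log2 scale on every array, and that of 12 macrophage markers between 6.27 and 8.72. Values are log2 values after robust multichip averaging (RMA), in which a difference of 1 is 2-fold, and they carry no detection call. In such bulk samples fewer cells of a type and less RNA per cell cannot be told apart. Tissue replicates 2 and 3 had a narrower spread of values over all probe sets (SD 2.14 and 1.93) than the other 10 arrays (2.31 to 2.42), and calls in tissue were also made without them. For counts made without them the share of all genes called is not given here.

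C2 was 3.40-fold higher in tissue than in 2D and 3.23-fold higher than in 3D, Cfb was 2.10-fold lower in tissue than in 2D, and the C3a receptor C3ar1 was 2.92-fold lower in tissue than in 3D. Cfp was called higher in tissue than in 3D by 1 of its probe sets and lower by the other. Between 3D and 2D no member passed the test. The plot of every array's value shows these levels.

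Markers of several cell types moved between tissue and culture beside these genes, and their part in the members' values was not tested. Of 9 sympathetic neuron markers, 2 were called higher in tissue against 2D and 5 against 3D, and 0 lower. Rbfox3 was higher by 2.01 and 2.21, while Stmn2 was at -0.18 and -0.11. Without tissue replicates 2 and 3, 2 neuron markers were called higher against 2D and 9 against 3D. The mean of 6 skeletal muscle markers was 5.47, 9.01, 7.82 and 9.13 in tissue and 5.18 to 5.41 in the cultures, so tissue replicates 2 to 4 stood apart; 3 of the 6 were called higher in each tissue comparison, such as Myh1 (5.56 against 2D and 5.76 against 3D). The 6 endothelium markers had 2 called higher against 2D and 4 against 3D (Tek 1.95 and 1.96), and the 8 fibroblast markers 3 and 2 (Dpt 3.78 and 3.34). The collagens on the fibroblast list lay lower in tissue without passing the test (Col1a1 -2.505 and -2.245, Col1a2 -1.47 and -1.46, Col3a1 -0.53 and -0.60). Of 6 markers of satellite glia and Schwann cells, 4 were called lower in tissue in each comparison, with a mean of 9.79 to 11.13 in tissue and 11.37 to 12.02 in the cultures. Fabp7 of this list went the other way without passing the test (0.72 against 2D and 0.79 against 3D, limma adjusted p = 0.101 and 0.0795). C2 read 9.94 on tissue replicate 1, where the muscle mean was 5.47, and 9.79 to 10.04 on the other 3 tissue arrays. Without tissue replicates 2 and 3, Myh1 was 3.68 against 2D (limma adjusted p = 0.116), and 4 endothelium markers were called higher against 2D and 6 against 3D. Of the fibroblast markers 3 were then higher against 2D, and 4 were higher and 2 lower (Col1a1 and Col1a2) against 3D. Of the satellite glia and Schwann cell markers 1 was then higher (Fabp7) and 3 lower against 2D, and 1 higher (Fabp7) and 4 lower against 3D.

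**Figure D1:**
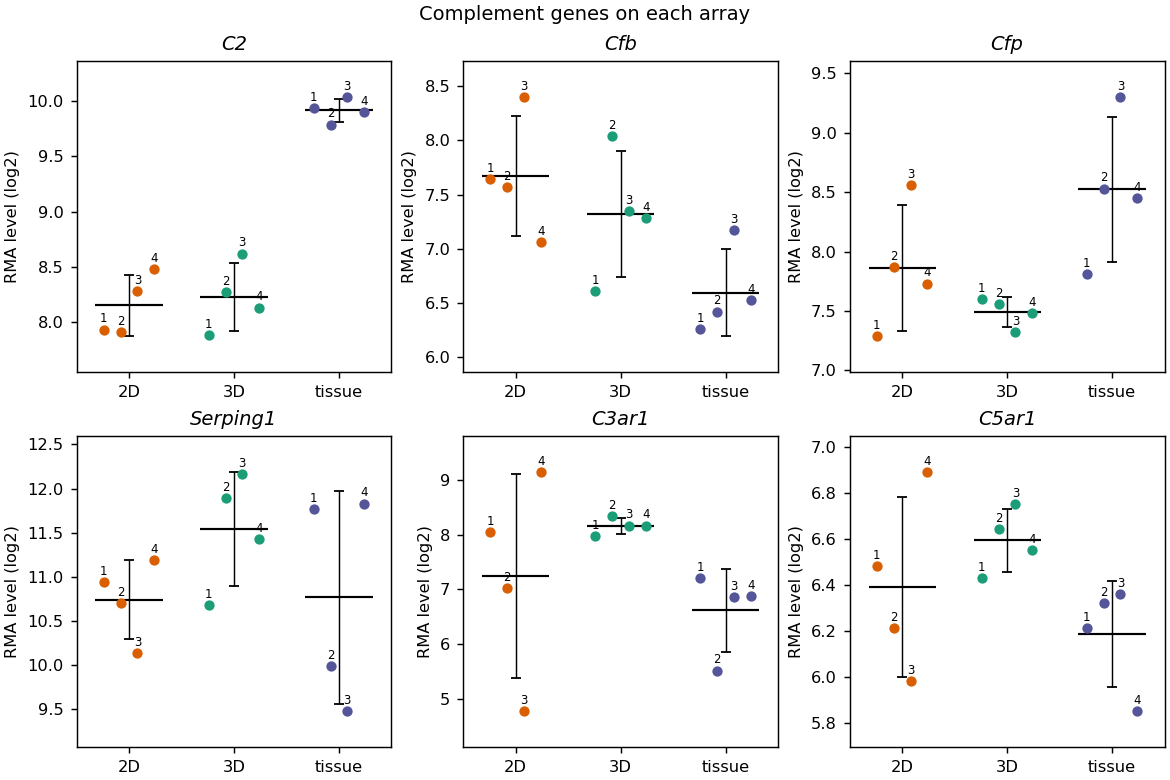
Log2 RMA value (vertical axis) of the 6 measured complement genes on each array, by group (horizontal axis); points are single arrays numbered by replicate, horizontal lines are group means and error bars are 1 SD (n = 4). The tissue arrays of C2 lie between 9.79 and 10.04, above all 8 culture arrays, while the 2D arrays of C3ar1 spread from 4.77 to 9.15.

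C2 was the one member called in both tissue comparisons. Its probe set (1441912_x_at) read 7.93, 7.91, 8.28 and 8.48 in 2D and 7.88, 8.27, 8.62 and 8.13 in 3D. In tissue it read 9.94, 9.79, 10.04 and 9.90. Every tissue array was above every culture array, and the arrays of the 2 cultures overlapped. The means were 8.15 ± 0.28 in 2D, 8.23 ± 0.31 in 3D and 9.92 ± 0.10 in tissue (SD, n = 4). C2 was higher in tissue than in 2D by 1.77 (SE 0.17, 95% interval 1.38 to 2.15, limma adjusted p = 3.43e-04) and than in 3D by 1.69 (SE 0.17, interval 1.31 to 2.08, limma adjusted p = 1.79e-04). In each comparison the exact two-sided permutation test over 70 splits of 8 arrays gave p = 0.0286, the smallest it can give. Between 3D and 2D the difference was 0.07 (interval -0.34 to 0.49, limma adjusted p = 0.904).

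The 2 other probe sets of C2 went the same way. Probe set 1457664_x_at was higher in tissue by 2.79 against 2D and by 2.77 against 3D (limma adjusted p = 7.21e-05 and 5.47e-05). Probe set 1416051_at was higher by 1.67 and 1.61 (limma adjusted p = 0.00976 and 0.0105). On the latter, tissue read 9.0, 7.89, 7.37 and 8.67 and the 8 culture arrays lay between 5.99 and 6.98. Its SD in tissue was 0.74, against 0.10 for the probe set used. The suffix x marks probe sets whose probes also match other sequences in part. C2 remained past the threshold in all 25 alternative analyses of each tissue comparison, with differences of 1.67 to 2.79 against 2D and 1.58 to 2.77 against 3D.

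Cfb lies next to C2, with 0 protein coding genes between them in the RefSeq annotation of GRCm38.p6, and its values ran the other way. Its only probe set (1417314_at) read 7.64, 7.57, 8.40 and 7.06 in 2D and 6.61, 8.04, 7.35 and 7.28 in 3D. Tissue read 6.26, 6.42, 7.17 and 6.53. Tissue replicate 3 lay above the lowest 2D array, so the groups overlapped by 1 array on each side. The means were 7.67 ± 0.55, 7.32 ± 0.58 and 6.60 ± 0.40 (SD, n = 4). Cfb was lower in tissue than in 2D, by a log2 difference of -1.07 (SE 0.30, interval -1.76 to -0.39, limma adjusted p = 0.0353, exact permutation p = 0.0571). Against 3D the difference of tissue was -0.73 (interval -1.42 to -0.03, limma adjusted p = 0.0974), and between 3D and 2D it was -0.35 (interval -1.12 to 0.43, limma adjusted p = 0.731).

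The call of Cfb against 2D is a narrow one. It was lost when arrays were centred on their bright probe sets (-0.79, limma adjusted p = 0.0991), and also without 2D replicates 1, 2 or 3 or without tissue replicates 1, 2 or 4, one at a time (-0.83 to -1.11, limma adjusted p from 0.0539 to 0.0979). Against 3D it was gained without 3D replicate 1 (-0.96, limma adjusted p = 0.0401) and without tissue replicate 3 (-0.92, limma adjusted p = 0.0367).

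**Figure D2:**
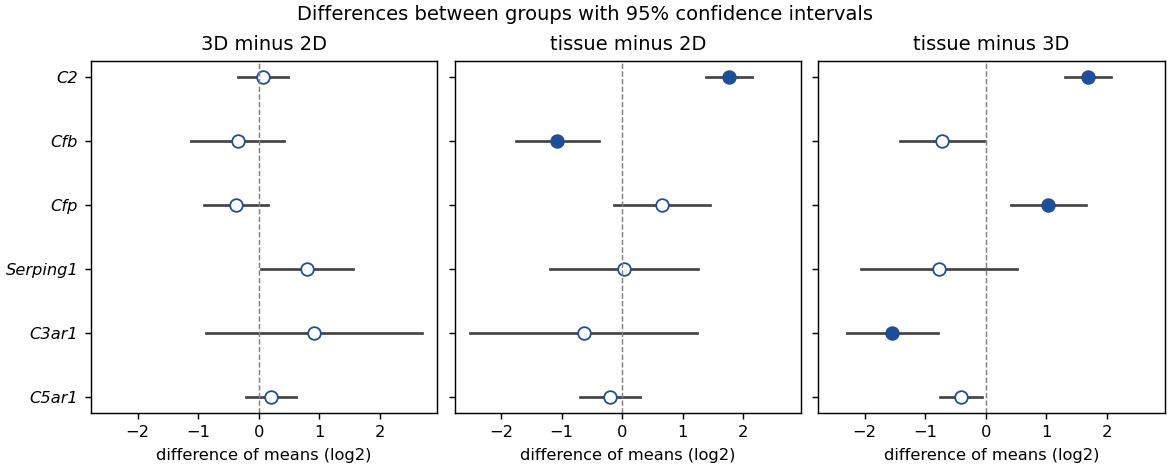
Difference of group means on the log2 scale (horizontal axis) with its 95% confidence interval for each measured complement gene, in the 3 comparisons; filled points passed the limma test across all probe sets. C2 is the only gene with a filled point in both tissue comparisons (1.77 and 1.69), and no point is filled for 3D minus 2D.

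For properdin the 2 probe sets disagreed in direction, so no direction of Cfp can be given. The probe set used (1447537_at) read 7.29, 7.87, 8.56 and 7.73 in 2D and 7.60, 7.56, 7.32 and 7.48 in 3D. Tissue read 7.81, 8.53, 9.30 and 8.45, above every 3D array but not above every 2D array. Tissue was higher than 3D by 1.03 (SE 0.28, interval 0.41 to 1.66, limma adjusted p = 0.0202, 2.05-fold). Against 2D the difference of tissue was 0.66 (limma adjusted p = 0.184), and 3D minus 2D was -0.37 (limma adjusted p = 0.581).

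The other probe set of Cfp (1452279_at) read 7.77, 7.15, 6.77 and 8.63 in 2D and 7.72, 7.79, 8.15 and 7.83 in 3D. Tissue read 7.04, 6.15, 6.65 and 7.31, below every 3D array. Tissue was lower than 3D by a log2 difference of -1.09 on it (SE 0.24, interval -1.64 to -0.53, limma adjusted p = 0.00973). Against 2D the difference was -0.79 (limma adjusted p = 0.174). With the 2 probe sets averaged, tissue minus 3D was -0.03 and tissue minus 2D was -0.07. Over the 12 arrays the 2 probe sets had a Pearson r of -0.749. Which of them reads properdin messenger RNA was not tested. The call of the probe set used was also lost without 3D replicate 3, 3D replicate 4 or tissue replicate 2 (limma adjusted p = 0.0593, 0.0545 and 0.0524).

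**Figure D3:**
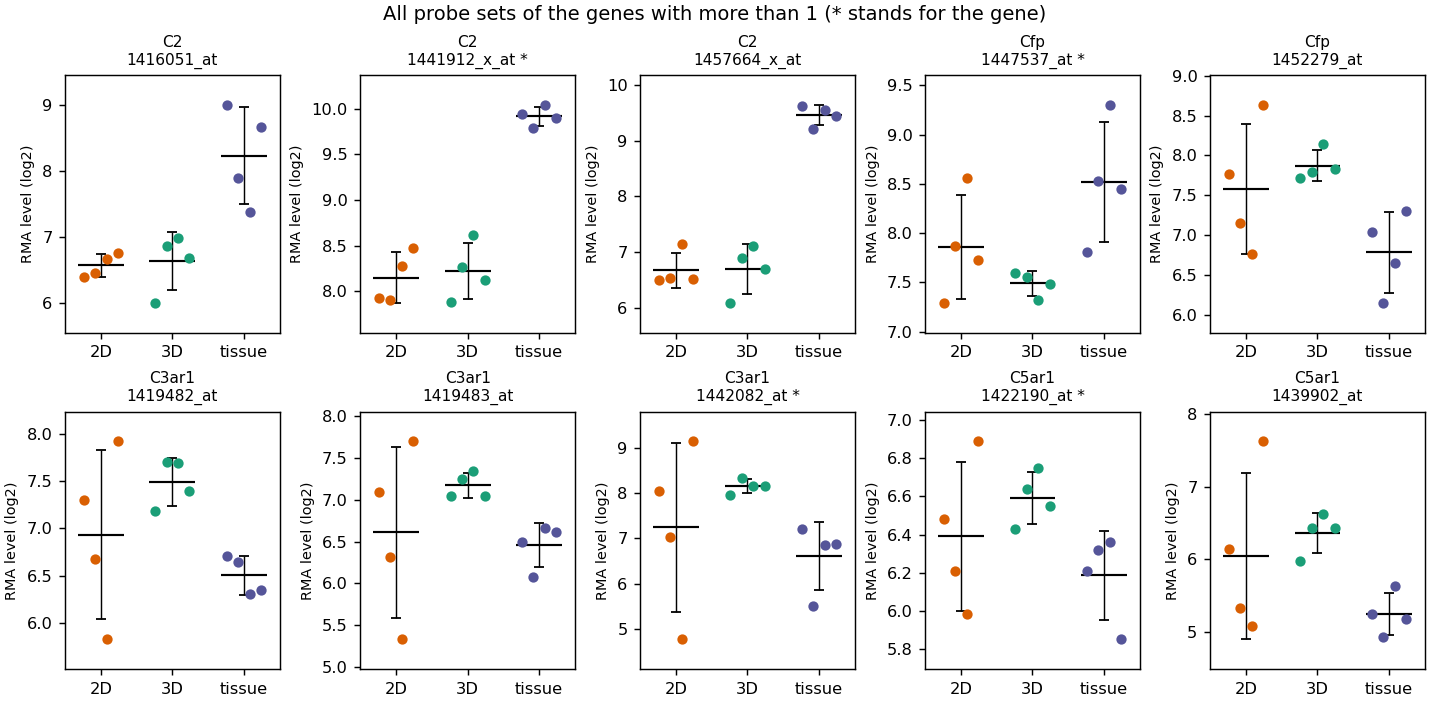
Log2 RMA value on each array (vertical axis) for all probe sets of the 4 members that have more than 1, by group (horizontal axis), with means as lines and SD as error bars (n = 4); an asterisk marks the probe set used. The 2 probe sets of Cfp go opposite ways between 3D and tissue (1.03 and -1.09), whereas those of C2, C3ar1 and C5ar1 each go the same way.

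Serping1 varied most within tissue. Its probe set (1416625_at) read 10.94, 10.70, 10.14 and 11.19 in 2D and 10.68, 11.89, 12.16 and 11.43 in 3D. In tissue it read 11.77, 9.99, 9.48 and 11.83, so replicates 1 and 4 lay with the 3D arrays and replicates 2 and 3 below all 2D arrays. The mean of 8 fibroblast markers was 11.83, 10.45, 10.14 and 11.74 in tissue, 10.42 on replicate 1 and 10.78 to 11.03 on the other 3 arrays of 3D, and 10.58, 10.31, 10.14 and 10.51 in 2D. In tissue replicates 1 and 4 were high for both, and in 3D replicate 1 and in 2D replicate 3 were low for both. The means of endothelium, macrophage, and satellite glia and Schwann cell markers were also high or low on these arrays. In tissue that of satellite glia and Schwann cells read 11.13, 10.34, 9.79 and 11.13. The neuron, neutrophil and skeletal muscle means did not follow on all of these arrays. The part of fibroblasts or other cells in the Serping1 values was not tested. The means of Serping1 were 10.74 ± 0.45, 11.54 ± 0.65 and 10.77 ± 1.21 (SD, n = 4). No comparison passed the test: 3D minus 2D was 0.80 (interval 0.04 to 1.56, limma adjusted p = 0.415), tissue minus 2D was 0.03 (interval -1.20 to 1.25, limma adjusted p = 0.976) and tissue minus 3D was -0.77 (interval -2.06 to 0.52, limma adjusted p = 0.306). Without tissue replicates 2 and 3, the arrays of narrow spread, tissue minus 2D was 1.06 (limma adjusted p = 0.0425) and tissue minus 3D was 0.26 (limma adjusted p = 0.596). Without 2D replicate 4 and 3D replicate 1, the difference between 3D and 2D was 1.23 (limma adjusted p = 0.0425). These are the highest 2D and the lowest 3D array for Serping1, so leaving them out must widen the difference.

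The receptors C3ar1 and C5ar1 had their lowest group mean in tissue on every probe set, and their 2D arrays were the most uneven. The probe set of C3ar1 (1442082_at) read 8.05, 7.03, 4.77 and 9.15 in 2D, from lowest to highest a range of over 4 log2 units. In 3D it read 7.97, 8.34, 8.17 and 8.17, and in tissue 7.21, 5.51, 6.86 and 6.88. All 3D arrays were above all tissue arrays, and the 2D arrays lay on both sides of them. The SD was 1.87 in 2D, 0.15 in 3D and 0.75 in tissue around means of 7.25, 8.16 and 6.62 (n = 4). Tissue was lower than 3D by a log2 difference of -1.55 (SE 0.33, interval -2.30 to -0.80, limma adjusted p = 0.00778, exact permutation p = 0.0286).

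On the 2 other probe sets of C3ar1 tissue was lower than 3D by -0.99 and -0.72 (limma adjusted p = 0.00270 and 0.0104), and no array overlapped. One fit of all 12 arrays, in which the 2D spread enters, gave the same -1.55 with a limma adjusted p of 0.100. Against 2D the difference of tissue was -0.64 (interval -2.51 to 1.24, limma adjusted p = 0.577), and 3D minus 2D was 0.91 (interval -0.87 to 2.69, limma adjusted p = 0.691). Both intervals hold 0 as well as differences of over 2-fold.

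The group means of C5ar1 stood in the same order as those of C3ar1, highest in 3D and lowest in tissue. Its probe set (1422190_at) read 6.48, 6.21, 5.98 and 6.89 in 2D and 6.43, 6.64, 6.75 and 6.55 in 3D. Tissue read 6.21, 6.32, 6.36 and 5.85, all below the lowest 3D array. Tissue minus 3D was -0.41 (SE 0.15, interval -0.75 to -0.06), which did not pass the test (limma adjusted p = 0.0674). The other probe set (1439902_at) read 5.97, 6.43, 6.63 and 6.43 in 3D and 5.25, 4.93, 5.63 and 5.17 in tissue. On it C5ar1 was lower in tissue, by a log2 difference of -1.12 (SE 0.20, limma adjusted p = 0.00292). The C5ar1 call depended on the probe set, and the direction was the same on both. It also depended on the arrays and the processing: tissue minus 3D passed the test in 9 of 24 alternative analyses. With single arrays left out, the limma adjusted p of the probe set used ran from 0.0347 to 0.165. Tissue minus 2D was -0.21 (limma adjusted p = 0.495) and 3D minus 2D was 0.20 (limma adjusted p = 0.707).

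Macrophage markers differed between the arrays beside these receptors. The mean of 12 macrophage markers was 7.53, 6.77, 6.27 and 8.72 in 2D, 7.40, 7.70, 7.77 and 7.42 in 3D, and 8.61, 8.03, 7.87 and 8.52 in tissue. Within 2D, replicate 4 was highest and replicate 3 lowest for the markers, for C3ar1 and for C5ar1. Between 3D and tissue the markers and the receptors went opposite ways. All tissue arrays had a higher marker mean than all 3D arrays, 7 of the 12 markers were called higher and 2 lower in tissue, and the 2 lower were Cd68 (-1.64) and Cd14 (-2.95), a lysosomal protein of phagocytes and a receptor for bacterial lipopolysaccharide. Against 2D, 3 of the 12 were higher and 2 lower. Without tissue replicates 2 and 3 the counts were 9 higher and 2 lower against 3D and 3 higher and 0 lower against 2D, with Cd68 at -0.95 against 3D. Of the neutrophil markers, whose mean stayed between 5.26 and 6.09 on all arrays, 1 of 5 was called higher in tissue in each comparison and none lower. The part of cell content in the receptor values was not tested.

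**Figure D4:**
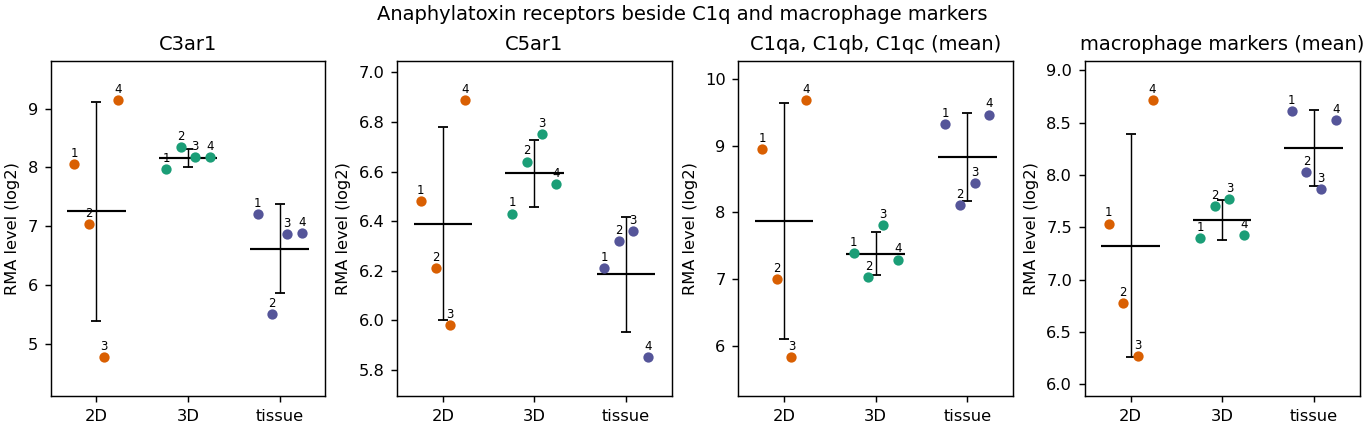
Log2 value on each array (vertical axis) by group (horizontal axis) for C3ar1, C5ar1, the mean of the 3 C1q chains and the mean of 12 macrophage markers; numbers beside the points are replicates, lines are means and error bars are 1 SD (n = 4). The receptors are lowest in tissue on average, whereas the marker mean is highest there (7.87 to 8.61).

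The start regions of both receptor genes are shown because their group means stood in the same order. RefSeq (GRCm38.p6) gave the 250 bases before the start of 3 of the 6 measured genes, C3ar1, C5ar1 and Cfp. Capitals mark TGANTCA, the AP-1 motif, searched on both strands. The window of C3ar1 is chr6:122856158-122856407 and that of C5ar1 is chr7:16259339-16259588, both on the minus strand and printed 5′ to 3′ towards the gene.
C3ar1: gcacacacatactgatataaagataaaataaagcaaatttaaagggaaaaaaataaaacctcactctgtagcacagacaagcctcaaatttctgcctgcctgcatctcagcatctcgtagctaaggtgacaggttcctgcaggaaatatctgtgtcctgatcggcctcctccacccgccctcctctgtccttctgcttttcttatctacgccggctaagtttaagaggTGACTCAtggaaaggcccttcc
C5ar1: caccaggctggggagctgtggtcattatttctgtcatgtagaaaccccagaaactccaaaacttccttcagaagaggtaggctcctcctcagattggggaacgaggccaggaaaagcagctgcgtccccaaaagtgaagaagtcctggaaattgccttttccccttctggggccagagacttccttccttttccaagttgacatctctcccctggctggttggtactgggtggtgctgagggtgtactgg

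C3ar1 holds 1 AP-1 match, 22 to 16 bases before its start, and C5ar1 and Cfp hold none. Such a match stands in 6.75% of the 32851 windows of this length. The NF-kB motif, GGG and CC with 5 bases of any kind between them, occurs on the opposite strand in C3ar1, 14 to 5 bases before the start and not overlapping the AP-1 match, and in Cfp, 10 to 1 bases before it, but not in C5ar1. It is found in 45.8% of windows. The motifs GAGGAA (PU.1 type, 23.3% of windows), TTCNNNGAA (GAS, 7.02%) and GAAA repeated after 2 bases of any kind (the core of the interferon response element, 2.98%) have 0 matches in the 3 windows. A match is a description of the letters and not a site.

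The members' calls were few and went both ways. Between 3D and 2D, 0 of the 6 members were higher and 0 lower, against 0.0165% and 0% of all genes. The count at an unadjusted limma p under 0.05 was 1 of 6, Serping1, beside 2377 of all 18193 genes. The methods' t-test gave 0 with or without adjustment. Between tissue and 2D, 1 member was higher (C2; 9.87% of all genes) and 1 lower (Cfb; 14.3%). Between tissue and 3D, 2 were higher (C2 and the probe set used for Cfp; 15.5%) and 1 lower (C3ar1; 20.1%). With the other probe set of Cfp, which was called lower (-1.09, limma adjusted p = 0.00973), 1 was higher and 2 were lower. Without tissue replicates 2 and 3 the calls on the probe sets used stood, with differences of 1.77 (C2) and -1.27 (Cfb) against 2D and of 1.70 (C2), 0.64 (Cfp) and -1.12 (C3ar1) against 3D. The median difference of the members was 0.14 for 3D minus 2D, -0.09 for tissue minus 2D and -0.57 for tissue minus 3D, where that of all genes was 0.01, 0.03 and 0.03. The comparisons share arrays, so their values are not independent of each other.

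Of 48 other complement genes, 39 had a probe set of their own, and 13 of the 39 are inhibitors. Of the 4 with the smallest adjusted p, 3 against 2D and all 4 against 3D were inhibitors, with Csmd1 lower and the others higher. Whether inhibitors stand out among the 39 was not tested. Vitronectin (Vtn), which binds the terminal complex, read 8.15, 7.47, 8.21 and 8.47 in tissue, while all culture arrays lay between 4.92 and 5.35. It was 7.11-fold higher than in 2D and 7.96-fold higher than in 3D (limma adjusted p = 1.18e-04 and 2.75e-05). Clusterin (Clu), another inhibitor of the terminal complex, read 12.12, 12.58, 12.57 and 11.91 in tissue and was higher by 2.85 against 2D and 3.63 against 3D (limma adjusted p = 0.0128 and 4.74e-05). Cd55, which speeds the decay of the convertases, was higher by 1.71 and 1.70 (limma adjusted p = 0.00752 and 0.00105). Csmd1, a membrane regulator that neurons are known to express, was lower in tissue, by log2 differences of -2.04 and -2.48 (limma adjusted p = 2.13e-04 and 9.36e-06). The other inhibitor called lower was Cr1l (-1.06 and -0.86, limma adjusted p = 0.0254 and 0.0293). Susd4 was called higher (1.105 and 1.26, limma adjusted p = 0.0286 and 0.00618). Of the 13 inhibitors, 4 were called higher and 2 lower in tissue in each comparison, where 9.87% and 14.3% of all genes were called against 2D and 15.5% and 20.1% against 3D, and Serping1, a further inhibitor and a member, was called in neither.

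Upstream of C2 in the classical pathway stand the proteases C1r and C1s and the recognition protein C1q. C1s1, the protease that cleaves C2, was higher in tissue than in 2D by 2.31 (limma adjusted p = 0.00327), and tissue minus 3D was 0.84 (limma adjusted p = 0.144). Between 3D and 2D its difference was 1.47 (limma adjusted p = 0.168), with all 3D arrays (7.27 to 8.74) above all 2D arrays (6.29 to 6.88). Its probe set has the suffix s, which marks probes that match more than 1 transcript, so RNA of the near copy C1s2 may be read with it. C1ra, the protease that activates C1s, was called against neither culture (0.13 against 2D and -0.38 against 3D, limma adjusted p = 0.844 and 0.508). The chains of C1q, which recognises the targets, were each called higher in tissue than in 3D (C1qa 1.59, C1qb 1.21 and C1qc 1.56, limma adjusted p = 0.00460, 0.0110 and 0.0196) and none was called against 2D (1.18, 0.69 and 1.04, limma adjusted p = 0.327, 0.370 and 0.410), where the mean of the chains ran from 5.83 to 9.69. Whether the differences from the 2 cultures differ was not tested for these genes. C1q is made by macrophages, and its 2D arrays stood in the same order as those of C3ar1. Of the other recognition genes, Colec12 was called lower in tissue than in 3D (-1.215, limma adjusted p = 0.0168) but not than in 2D (-0.565, limma adjusted p = 0.240).

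Of the 7 other genes listed as receptors, 0 were called against 2D. Against 3D, Itgam and Itgb2, which form complement receptor 3, were lower in tissue (-0.76 and -0.89, limma adjusted p = 0.00282 and 0.0218), like C3ar1, and Cd93 was higher (1.43, limma adjusted p = 0.0372). Itgam was dim: it read 4.51 to 4.9 in tissue and 5.4 to 5.62 in 3D, below the log2 level of 6 that the filter uses. None of the 5 terminal pathway genes was called in either tissue comparison. Over the 39 genes 5 were higher and 2 lower in tissue than in 2D, beside 9.87% and 14.3% of all genes, and 8 were higher and 5 lower than in 3D, beside 15.5% and 20.1%. Without tissue replicates 2 and 3 7 were higher and 2 lower than in 2D, and 11 higher and 7 lower than in 3D. The share of all genes called in those fits is not given here, so these counts cannot be set against a rise across all genes. The calls named here stood without these replicates except those of Clu (2.57, limma adjusted p = 0.0772) and Cr1l (-0.61, limma adjusted p = 0.0557) against 2D. Gained as higher against 3D were C1s1 (1.49, limma adjusted p = 0.00775), Colec11 (0.68, limma adjusted p = 0.00424) and Cd59a (0.54, limma adjusted p = 0.00142). Masp1 and C4bp were gained as lower against 3D (-0.92 and -0.36, limma adjusted p = 0.00264 and 0.0366). Gained as higher against 2D were Cd93 (1.80, limma adjusted p = 0.0227), C1ra (0.99, limma adjusted p = 0.0149) and Colec11 (0.67, limma adjusted p = 0.0317). Masp1 was gained as lower against 2D (-1.25, limma adjusted p = 0.0406). Cd93 against 3D was 2.30. On all arrays the median differences of the 39 genes were 0.27 and 0.29, where those of all genes were 0.03 and 0.03. Many of the 39 are dim, and their medians without tissue replicates 2 and 3 are not given here. Between 3D and 2D 0 were called by limma, and 3 of 39 had an unadjusted limma p under 0.05, beside 2377 of all 18193 genes. The unadjusted form of the methods' t-test called 3. After C1s1, Csmd1, C1ra and Cfi had the smallest adjusted p in that comparison, with differences of 0.44, 0.51 and -0.18 (limma adjusted p = 0.299, 0.305 and 0.476).

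**Figure D5:**
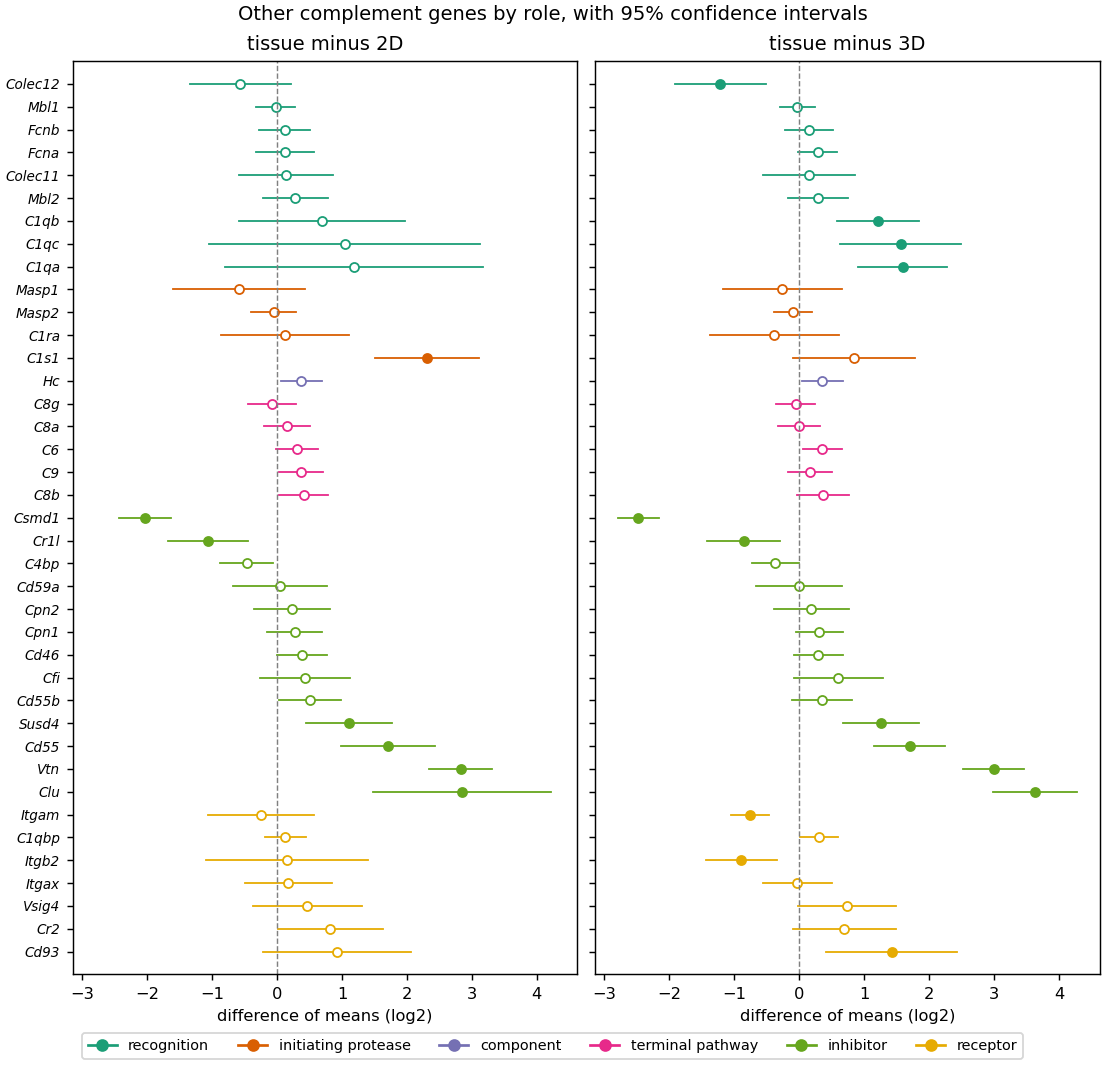
Difference on the log2 scale (horizontal axis) with its 95% confidence interval for 39 other complement genes, coloured by role; filled points passed the limma test. In both tissue comparisons Vtn and Clu lie farthest to the right (2.83 and 2.85 against 2D) and Csmd1 farthest to the left (-2.04 and -2.48).

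Each member's level was also set beside that of 11591 genes with an SD of at least 0.3 over the 12 arrays. The values below are Pearson r over 12 arrays that share the group differences, and the r of deviations from the group means follows in parentheses. The genes most like C2 were Alox5 with 0.984 (0.742), Fras1 with 0.981 (0.713) and Col8a2 with 0.977 (0.633). Those most like Cfb were Irf7, an interferon regulatory factor, with 0.888 (0.790), Trim34a with 0.881 (0.784) and Pnoc with 0.871 (0.754). Irf7 read 9.28, 9.47, 9.63 and 8.03 in 2D and 6.52 to 7.03 in tissue, and in 3D, as for Cfb, replicate 1 was lowest (6.88) and replicate 2 highest (9.0).

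C3ar1 was most like Lyz2, the lysozyme of macrophages, with 0.941 (0.933), Ccl6 with 0.938 (0.916) and Ms4a6d with 0.936 (0.937). Lyz2 read 11.22, 10.68, 6.59 and 12.75 in 2D, in the same order as C3ar1. C5ar1 was most like Tll1 with 0.937 (0.920), Lpp with 0.915 (0.906) and Socs5 with 0.908 (0.882). Serping1 was most like Sned1 with 0.953 (0.942), Pard3b with 0.945 (0.946) and Ntn1 with 0.936 (0.931). The probe set used for Cfp was most like Lor with 0.956 (0.915), Trhr2 with 0.951 (0.910) and Commd9 with 0.948 (0.940). For C2 the r within groups was lower than for the other members.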

How the data were processed

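Messenger RNA of 3 groups of 4 samples was measured on Affymetrix Mouse Genome arrays. The authors deposited log2 values made with RMA in Expression Console (background adjustment, quantile normalization, summarization); version not given in the sources used here. The deposited log2 values were used as given. Quantile normalization hides a shift shared by most genes, and scan dates were not used here. Of the probe sets, 64 controls were left out and 45037 tested; 34945 carry 1 symbol in the platform annotation, 932 several, and 9160 are unnamed here. Of the 18193 genes so named, 18032 matched a current gene record.

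Groups were compared in pairs on 8 arrays with limma 3.58.1 in R 4.3.3, p-values being adjusted over all tested probe sets by the Benjamini-Hochberg method (threshold 0.05), the methods' Student test being an alternative. The fits were tested on simulated data. The text names the members, the 4 other complement genes of smallest adjusted p in each comparison, cell type markers and the 3 genes most like each member. Other called complement genes (C1q chains, Colec12, Cr1l, Susd4, Itgam, Itgb2, Cd93) were named after their values were seen. Members and lists were chosen with earlier results of these data known. Alternatives covered the arrays fitted, weights, filter, scaling, replicate block, choice of probe set and each array left out; quantile normalization anew and single other probe sets were added after seeing the data. All 6 members pass the filter, which keeps the 26551 probe sets that reach 6 (log2) on 4 or more arrays. Nothing in the sources says whether cultures shared animals. Promoter windows are from RefSeq.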

Additional observations from a re-analysis of the deposited data

How the results depend on the processing

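Of 426 recomputed differences of single members, 381 kept their direction and side of the threshold, as did 221 of 272 recomputed counts within 1.5 times. The causes of the others were not tested. Whether replicate numbers pair the arrays is not known, and the values do not settle it. Same-number correlations were -0.07 to 0.41, with 2 of 4 best with their own number in each comparison. A replicate block raised the members higher in tissue than 2D from 1 to 2, through Cfp (0.66, limma adjusted p = 0.0290). Members higher in 3D than 2D became 1, Serping1, without 2D array 4 and 3D array 1, its highest 2D and lowest 3D arrays. Members higher in tissue than 2D became 2 without tissue arrays 2 and 3. Members lower in tissue than 2D became 0 with centring, renewed quantile normalization and the adjusted t-test (0 to 1 leaving out arrays). Members higher in tissue than 3D became 1 with the mean of probe sets, the probe set of highest SD and the adjusted t-test (1 to 2 leaving out arrays). Members lower in tissue than 3D, 1 in the text, were 0 in 1 fit of 12 arrays, 3 with array weights and the probe set of highest SD, and 2 with cyclic loess, the mean of probe sets, renewed quantile normalization, the unadjusted t-test and without either pair of arrays (1 to 3 leaving out arrays). Leaving out arrays gave C2 -0.0567 to 0.19 for 3D minus 2D and Serping1 -0.33 to 0.45 for tissue minus 2D. Directions turned for Serping1 between tissue and 3D without tissue arrays 2 and 3 (0.26), for C5ar1 between tissue and 2D with centring (0.0775), and for Cfp on its other probe set, also that of highest SD (0.29, -0.79 and -1.09), and with the mean of probe sets (-0.0663 and -0.0263). Of the other complement genes, those higher in 3D than 2D became 1 with array weights and 3 with the unadjusted t-test or without 2D array 4 and 3D array 1, which gave 1 lower. Those higher in tissue than 2D became 9 in 1 fit of 12 arrays and with array weights and 10 with the unadjusted t-test; those lower became 4 with weights and 1 with the mean of probe sets, the adjusted t-test or without 2D array 4 and 3D array 1 (1 to 3 leaving out arrays). Those lower in tissue than 3D became 3 in 1 fit of 12 arrays and with centring and 2 with a 2-fold minimum or the adjusted t-test (2 to 6 leaving out arrays). Without a detection call, the folds of dim probe sets such as those of C5ar1 and Itgam, and of Vtn in the cultures, are estimates.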

Other observations

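The genes most like the probe sets of the members that were not used were looked up after the values had been seen. For the other probe set of Cfp they were Nagpa, 2010320O07Rik and L3hypdh, with a Pearson r over the 12 arrays of 0.966, 0.955 and 0.944. The probe set 1419483_at of C3ar1 was most like Lyz2 (0.943) and Ccl6 (0.943), as was the probe set used, and next came Cd36 (0.930). The other probe set of C5ar1 was most like Ppbp, a platelet chemokine (0.960), Lpp (0.934) and Clec4n (0.931). Probe set 1416051_at of C2 was most like Cpxm2 (0.985), and 1457664_x_at was most like Fa2h (0.990). These 2 had an r of 0.891 and 0.983 with the C2 probe set used.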
